A study of Mus musculus with 6 samples.

Results

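The Toll-like receptors and their shared adaptor were followed in tdTomato-sorted skull cells, labelled as osteoblasts, of control mice and of mice that carry a mutant form of human amyloid precursor protein. The set holds 10 genes chosen by name, the receptors Tlr1, Tlr2, Tlr3, Tlr4, Tlr6, Tlr7, Tlr8, Tlr9 and Tlr13 and the adaptor Myd88, out of 17830 genes with a read count. Skull bone fragments of mice aged 6 months were cultured, the cells that grew out were sorted for the red protein tdTomato, and their RNA was sequenced in bulk. Both groups carried mOCN-Cre, which makes Cre from the osteocalcin gene Bglap, and Ai9, a reporter allele that makes tdTomato once Cre has acted. The 3 control libraries came from mOCN-Cre;Ai9 mice. The 3 APPswe libraries came from TgAPPswe mOCN-Cre;Ai9 mice, which in addition carry the Swedish mutant APP behind a stop cassette that Cre removes. The model is therefore limited to cells in which osteocalcin had been switched on, and a cell keeps the label after that gene is silent again. The mice were male according to the supplement of the study. Control replicates 1, 2 and 3 held 17649704, 18134411 and 18398392 counts, and APPswe replicates 1, 2 and 3 held 17263757, 17555489 and 17483141. Levels are given as CPM, counts of a gene scaled to library size after TMM normalization. A floor of 3 counts corresponded to between 0.167 and 0.173 CPM, which covers counting error only.

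Toll-like receptors recognize molecules of microbes and of damaged cells. Tlr1, Tlr2, Tlr4 and Tlr6 sit on the cell surface and bind lipoproteins or lipopolysaccharide, whereas Tlr3, Tlr7, Tlr8, Tlr9 and Tlr13 sit in endosomes and bind nucleic acids. All of the listed receptors but Tlr3 signal through Myd88, and Tlr3 and Tlr4 signal through Ticam1 (TRIF), with NF-kappaB, AP-1 and interferon regulatory factors as the transcription factors downstream. Macrophages and osteoclast precursors are rich in these receptors, and osteoblasts are known to respond to lipopolysaccharide through Tlr4.

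The genes lie at several places of the mouse genome (build GRCm38.p6, RefSeq, the build family named by the submitters' processing notes). Tlr1 (NCBI gene 21897, chr5:64924680-64933600) and Tlr6 (21899, chr5:64953092-64970942) are neighbours on the minus strand with 19491 bases between them. Tlr8 (170744, chrX:167241123-167264329) and Tlr7 (170743, chrX:167303380-167330574) are neighbours on the minus strand with 39050 bases between them. Tlr13 (279572, chrX:106143275-106160493, plus strand) is on the same chromosome, and Tlr9 (81897, chr9:106222598-106226876, plus strand) shares a chromosome with Myd88 (17874, chr9:119335934-119340018, minus strand). The remaining members stand alone, Tlr2 (24088) at chr3:83836272-83841824 on the minus strand, Tlr3 (142980) at chr8:45395665-45411075 on the minus strand and Tlr4 (21898) at chr4:66827551-66846581 on the plus strand. In the GENCODE vM21 transcripts, 15.4% of the 50-base windows of Tlr1 and 12.3% of those of Tlr6 also occur in another gene, 454 of them shared by this pair. How the counting treated such reads is not given in the sources used here, so the counts of Tlr1 and Tlr6 are uncertain to that extent. Tlr3 overlaps the antisense gene Gm45542 over 381 of its 5207 exon bases, and Myd88 overlaps Acaa1a on the opposite strand over 290 of its 2576 exon bases. Whether strand was used in counting is likewise not given, so reads from these stretches cannot be assigned to a strand.

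RefSeq promoters of 300 bases, from 250 before to 50 after the start site, were matched for 8 of the 10 members, with no entry for Tlr4 and Tlr7. Shown here, from 5′ to 3′ on the strand of the gene in build GRCm38.p6, are those of Tlr3 (chr8:45410331-45410630, minus strand), Tlr8 (chrX:167264280-167264579, minus strand), Tlr9 (chr9:106222348-106222647, plus strand) and Tlr13 (chrX:106143025-106143324, plus strand), because for each of these endosomal receptors the APPswe libraries lay below the control libraries. The promoters of Tlr6 (chr5:64959117-64959416, minus strand) and Myd88 (chr9:119339969-119340268, minus strand) are shown beside them, the former as the member with an estimate above 0 and the latter as the shared adaptor. Capitals mark matches on either strand to GAAANNGAAA (core of the interferon-stimulated response element), GAGGAA (PU.1) or TGANTCA (AP-1).
Tlr3: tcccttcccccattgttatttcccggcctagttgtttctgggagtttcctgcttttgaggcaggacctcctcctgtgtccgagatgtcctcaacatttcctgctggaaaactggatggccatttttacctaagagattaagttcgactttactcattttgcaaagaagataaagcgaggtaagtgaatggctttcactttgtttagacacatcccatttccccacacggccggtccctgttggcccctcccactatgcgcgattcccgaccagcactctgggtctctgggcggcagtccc
Tlr8: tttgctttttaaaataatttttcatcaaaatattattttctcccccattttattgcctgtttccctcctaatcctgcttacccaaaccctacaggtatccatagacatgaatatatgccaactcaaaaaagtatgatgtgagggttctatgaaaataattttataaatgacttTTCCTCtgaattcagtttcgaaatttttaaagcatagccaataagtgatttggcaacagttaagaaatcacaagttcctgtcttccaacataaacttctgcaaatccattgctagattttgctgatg
Tlr9: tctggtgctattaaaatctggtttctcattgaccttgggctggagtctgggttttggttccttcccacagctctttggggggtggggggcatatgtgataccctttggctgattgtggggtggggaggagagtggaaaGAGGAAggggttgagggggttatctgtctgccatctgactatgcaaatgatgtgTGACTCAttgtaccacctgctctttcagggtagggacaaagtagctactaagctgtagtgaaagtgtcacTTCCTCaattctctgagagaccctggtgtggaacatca
Tlr13: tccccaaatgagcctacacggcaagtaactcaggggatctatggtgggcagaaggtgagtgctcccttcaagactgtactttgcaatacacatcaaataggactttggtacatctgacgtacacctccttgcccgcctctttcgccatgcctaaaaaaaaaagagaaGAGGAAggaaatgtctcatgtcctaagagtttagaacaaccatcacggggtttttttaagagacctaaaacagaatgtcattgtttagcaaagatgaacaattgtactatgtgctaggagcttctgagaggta
Tlr6: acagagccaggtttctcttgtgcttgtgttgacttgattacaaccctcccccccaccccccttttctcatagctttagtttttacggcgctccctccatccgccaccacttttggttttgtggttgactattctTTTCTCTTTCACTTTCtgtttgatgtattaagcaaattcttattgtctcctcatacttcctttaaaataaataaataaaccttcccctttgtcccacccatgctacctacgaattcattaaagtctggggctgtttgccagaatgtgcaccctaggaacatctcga
Myd88: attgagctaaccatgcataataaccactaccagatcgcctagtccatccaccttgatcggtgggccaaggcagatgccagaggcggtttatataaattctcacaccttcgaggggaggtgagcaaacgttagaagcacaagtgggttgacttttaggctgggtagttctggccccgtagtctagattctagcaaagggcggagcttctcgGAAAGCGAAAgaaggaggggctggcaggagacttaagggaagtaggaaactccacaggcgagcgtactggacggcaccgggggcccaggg
Of all 32851 promoters of this length, 3.44% hold GAAANNGAAA, 28.3% hold GAGGAA and 7.81% hold TGANTCA. The printed Tlr6 promoter holds 2 overlapping matches to GAAANNGAAA, between 116 and 101 bases before the start site, and that of Myd88 holds 1, from 40 to 31 bases before it. Matches to GAGGAA are in the promoters of Tlr8 (77 to 72 bases before the start site), Tlr13 (83 to 78 bases before it) and Tlr9, which has 2 of them and 1 palindromic match to TGANTCA. The surface receptor Tlr1, whose promoter is not printed, also holds a match to GAGGAA (23 to 18 bases before the start site). Tlr1 and Tlr6 each have a further RefSeq promoter (chr5:64932650-64932949 and chr5:64959999-64960298, minus strand), and neither holds a match to any of the 3 motifs. None of the motifs is in the printed window of Tlr3 or in that of Tlr2, which is not printed, and matches to different motifs do not overlap in the printed windows. A match is a description of the letters and was not set against the expression values.

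Control replicate 2 stood apart from the other control libraries, so the log2 fold changes of the members, and other values below, are given with and without it. Its counts of Uty, Kdm5d, Eif2s3y and Ddx3y, all on the Y chromosome, summed to 2, whereas every other library held between 2257 and 3406. Bglap, the locus that drives Cre, had 1 count there against 159 and 204 in the other controls and 115, 128 and 159 in APPswe libraries. The Y-linked counts of this library go against the stated male sex, so its label is in doubt. Its Bglap count sets it apart as well, although a cell keeps the tdTomato label after that gene is silent again. The osteoblast list given below summed highest in this library (11482 CPM), while 5 of its 12 genes were at or under 3 counts there. Most of the control sum of that list came from the collagen genes Col1a1 and Col1a2 (means of 4844 and 4965 CPM). The members differed there as well. Compared with the mean of control replicates 1 and 3, control replicate 2 held 2.08 times the CPM of Tlr3, 2.02 times that of Tlr9 and 1.72 times that of Tlr7, but 0.794 times that of Tlr1 and 0.823 times that of Tlr2. The library names also come in a pair of styles, a hyphen in control replicates 1 and 2 and APPswe replicate 1 and an underbar in the others. The name of control replicate 2 carries the letter S, whereas every other name carries the letter L. What the styles and letters stand for is not given in the sources used here.

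Transcripts of most Toll-like receptors were less abundant in APPswe than in control libraries. Tlr3, Tlr4 and Tlr7 fell by more than the fold limit, Tlr2, Tlr8 and Tlr13 were lower by less, and Tlr9 had a difference past the fold limit that missed the adjusted p. The estimates of Tlr1 and Myd88 were below 0 and did not pass the test. The count for Tlr6 was the exception, with a mean above that of control. Bulk counts cannot tell fewer cells that carry a transcript from less of it in each cell. A gene was called when edgeR's quasi-likelihood test gave a Benjamini-Hochberg adjusted p of at most 0.05 over the 13484 genes tested and its log2 fold change was 1 or more in size. All 10 members passed the filter on low counts. By this rule 3 of the 10 members were called lower, against 3.60% of all genes tested. None was called higher, 0 of 10 against 3.74% of all genes. The count called higher was also 0 with DESeq2 and with limma on FPKM, and 0 members were higher at an unadjusted p of at most 0.05 in edgeR. For that unadjusted p no share of all genes is given here. By the adjusted p alone, 6 members were lower and 0 higher, against 12.0% and 10.5% of all genes. By CPM the highest APPswe library was under the lowest control library in 8 of the 10 members, and in 0 members the lowest APPswe library was over the highest control library, against 22.2% and 22.8% of all genes. In FPKM the groups of Myd88, 1 of these 8, overlapped. The median log2 fold change was -0.60 over the members and -0.00 over all genes tested. The labels do not say that the libraries of a group come from separate animals, so the p-values measure only the spread between these libraries, which may be technical. By a chi-square of the counts per degree of freedom, APPswe replicates 2 and 3 were the most alike pair (1.57). The value was 5.94 for control replicates 1 and 3, and 7.10 and 7.60 for APPswe replicate 1 with replicates 2 and 3.

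With control replicate 2 left out the picture kept its direction and lost its calls. In that fit 0 members were called lower or higher in edgeR, against 6.58% and 4.87% of all genes. By the adjusted p alone, however, 8 members were then lower, against 25.0% of all genes, and 1, Tlr6, was higher, against 23.3%. The unadjusted p of at most 0.05 gave the same counts there, 8 lower and 1 higher. The shares of all genes at that cut-off are not given here, and are at least 25.0% and 23.3%. The median over the members was -0.53 without this library, beside 0.01 over all genes. The count of calls also moved with APPswe libraries, to 1 without APPswe replicate 1, 1 without replicate 2 and 0 without replicate 3, against 1.76%, 1.73% and 1.67% of all genes. The number lower by the adjusted p alone was 2, 1 and 1 in these fits, against 5.08%, 3.90% and 3.96% of all genes. DESeq2 on all 6 libraries called 4 members lower, with Tlr9 in addition, against 4.16% of all genes, and limma on log2(FPKM + 1) called 1, against 1.46%.

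**Figure D1:**
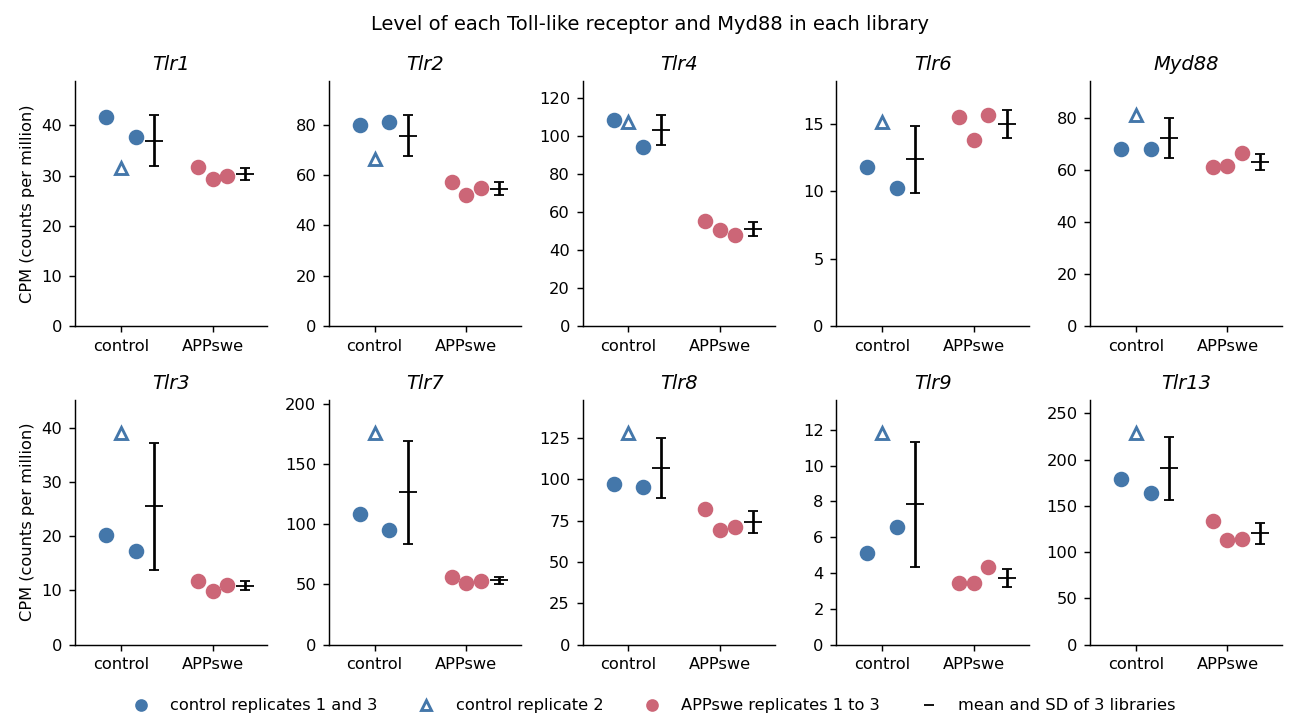
Each panel plots the CPM of a gene in the 6 libraries, with control on the left and APPswe on the right; points are libraries, the open triangle is control replicate 2, and the black mark gives the mean with its SD over 3 libraries. APPswe points lie below all control points in 8 of the 10 panels, and overlap with them for Tlr1 and Tlr6.

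Among the surface receptors, Tlr4 changed most. Tlr4, which senses lipopolysaccharide together with Ly96 and Cd14, stood at 108, 107 and 93.9 CPM in control replicates 1, 2 and 3 and at 55.0, 50.4 and 47.7 CPM in APPswe replicates 1, 2 and 3. The groups were well apart, and control replicate 2 was close to control replicate 1. Tlr4 fell from 103 ± 7.96 to 51.0 ± 3.69 CPM (SD, n = 3 each), 2.02-fold lower, with a log2 fold change of -1.01 (SE 0.09, 95% confidence interval -1.23 to -0.79, edgeR adjusted p = 0.00116). Since the estimate is only just past the fold limit, the call was lost without control replicate 1 (-0.98, edgeR adjusted p = 0.00717), without control replicate 2 (-0.98, edgeR adjusted p = 5.6e-06) and without APPswe replicate 3 (-0.97, edgeR adjusted p = 0.0146). Within the name styles the difference was -0.97 log2 among the hyphen libraries and -0.94 among the underbar libraries. With the style as a covariate it was -0.95 (edgeR adjusted p = 0.00319), again below the fold limit, as it was on library totals without TMM (-0.94) and with limma on log2(FPKM + 1) (-0.85) or log2(FPKM + 0.1) (-0.93).

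Tlr2, which pairs with Tlr1 or Tlr6 to bind bacterial lipoproteins, was found at 80.0, 66.3 and 81.0 CPM in control and at 57.2, 52.0 and 54.7 CPM in APPswe libraries. Here control replicate 2 was the lowest control library, and all APPswe libraries were lower still. The log2 fold change of -0.47 (SE 0.10) passed the adjusted p (edgeR, 0.0192) but not the fold limit, and was -0.56 without control replicate 2 (edgeR adjusted p = 8.74e-05). Tlr2 did not pass the adjusted p without control replicate 1 or 3 (edgeR adjusted p = 0.0576 and 0.0582). The same held without APPswe replicate 1, 2 or 3 (edgeR adjusted p = 0.0583, 0.0958 and 0.0872). Its partner Tlr1 gave 41.8, 31.5 and 37.6 CPM in control and 31.7, 29.4 and 30.0 CPM in APPswe libraries. The groups overlapped by a single pair of libraries, as control replicate 2 was just under APPswe replicate 1. The log2 fold change of Tlr1 was -0.28 (SE 0.12, edgeR adjusted p = 0.131), and -0.38 without that control library (edgeR adjusted p = 0.00311). Tlr6, the other partner of Tlr2, ran the opposite way, with 11.8, 15.1 and 10.2 CPM in control and 15.5, 13.8 and 15.7 CPM in APPswe libraries. Control replicate 2 fell among the APPswe values, whereas the other control libraries were below all of them. With all libraries its log2 fold change of 0.28 (95% confidence interval -0.12 to 0.68) did not pass the test (edgeR adjusted p = 0.269). Left without control replicate 2 it was 0.45, with an edgeR adjusted p of 0.00739.

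The adaptor Myd88, which links the receptors to the Irak kinases, was the steadiest member. It was counted at 68.0, 81.1 and 67.8 CPM in control and at 60.9, 61.4 and 66.4 CPM in APPswe libraries. The groups did not overlap in CPM, but the gap between APPswe replicate 3 and the lower controls was small. In FPKM they overlapped, as APPswe replicate 3 (40.3) lay above control replicates 1 (39.6) and 3 (39.0). The log2 fold change was -0.20 (95% confidence interval -0.43 to 0.03, edgeR adjusted p = 0.177) and -0.11 without control replicate 2 (edgeR adjusted p = 0.236). A missed threshold does not show equal levels, and the interval leaves room for a modest decrease.

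In all 5 endosomal receptors the APPswe libraries lay below the control libraries, beside 22.2% of all genes. By the adjusted p in edgeR 4 of them were lower, beside 12.0% of all genes. Tlr3, which binds double-stranded RNA, gave 20.3, 39.0 and 17.2 CPM in control and 11.8, 9.97 and 10.9 CPM in APPswe libraries. Control replicate 2 was far above the other controls, which were still higher than every APPswe library. Tlr3 fell from 25.5 ± 11.8 to 10.9 ± 0.901 CPM (SD, n = 3 each), 2.34-fold lower, with a log2 fold change of -1.23 (SE 0.31, 95% confidence interval -1.97 to -0.49, edgeR adjusted p = 0.0333). Dropping control replicate 2 reduced the difference to -0.78 and lowered the edgeR adjusted p to 0.000252, so the fold limit was missed while the spread shrank. The call was also lost without APPswe replicate 1, 2 or 3, with edgeR adjusted p-values of 0.104, 0.129 and 0.118. The difference was -1.33 among the hyphen libraries, which include control replicate 2, and -0.72 among the underbar libraries. With name style as a covariate it was -1.03 (edgeR adjusted p = 0.0796), and with a replicate block -1.14 (edgeR adjusted p = 0.0762). Neither kept the call, nor did limma on log2(FPKM + 1) (-0.85, adjusted p = 0.0590) or log2(FPKM + 0.1) (-1.03, adjusted p = 0.0534).

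Tlr7, a sensor of single-stranded RNA, stood at 109, 175 and 94.9 CPM in control and at 56.2, 50.8 and 52.7 CPM in APPswe libraries. The APPswe libraries were tightly grouped and clear of the lowest control, and control replicate 2 was again the highest. Tlr7 fell from 126 ± 43.0 to 53.3 ± 2.75 CPM (SD, n = 3 each), 2.37-fold lower, with a log2 fold change of -1.25 (SE 0.23, 95% confidence interval -1.78 to -0.71, edgeR adjusted p = 0.0112). It was -0.93 without control replicate 2 (edgeR adjusted p = 4.92e-06), short of the fold limit. Leaving out APPswe replicate 1, 2 or 3 gave edgeR adjusted p-values of 0.0538, 0.0635 and 0.0604, at log2 fold changes of -1.28, -1.21 and -1.24. Among hyphen libraries the difference was -1.34 and among underbar libraries -0.88, and with style as a covariate Tlr7 kept its call (-1.11, edgeR adjusted p = 0.0302).

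Tlr8, the neighbour of Tlr7 on the X chromosome, gave 97.1, 128 and 95.3 CPM in control and 81.9, 69.5 and 70.8 CPM in APPswe libraries. All APPswe values were lower, with a smaller gap than for Tlr7. Its log2 fold change was -0.53 (SE 0.14, edgeR adjusted p = 0.0355), and -0.37 without control replicate 2 (edgeR adjusted p = 0.00319). Tlr8 passed the adjusted p in 7 of 18 alternatives. Among the passes is the setting with no fold limit, which repeats the reported p. The 18 also include edgeR's glmTreat, which tests against a log2 fold change of 1. It failed with a replicate block (edgeR adjusted p = 0.0794), with name style as a covariate (0.0569) and without control replicate 1 (0.0533). It also failed without APPswe replicate 1, 2 or 3 (edgeR adjusted p = 0.0734, 0.144 and 0.138) and with limma on log2(FPKM + 1) (adjusted p = 0.0627). Tlr13, which senses bacterial ribosomal RNA in mice, stood at 179, 228 and 164 CPM in control and at 133, 113 and 114 CPM in APPswe libraries. The groups were apart, with control replicate 2 on top. Its log2 fold change was -0.67 (SE 0.14, edgeR adjusted p = 0.0193), and -0.51 without control replicate 2 (edgeR adjusted p = 0.000527). Tlr13 did not pass the adjusted p without APPswe replicate 2 or 3 (edgeR adjusted p = 0.0946 and 0.0909). Tlr9, the sensor of unmethylated CpG DNA, was the scarcest member, with 5.14, 11.8 and 6.55 CPM in control and 3.42, 3.45 and 4.33 CPM in APPswe libraries, from 61 to 210 counts. Its control replicate 2 was again far above the rest, and the groups did not overlap. The log2 fold change of Tlr9 was -1.07 (SE 0.33), past the fold limit but with an edgeR adjusted p of 0.0588. This turned into a call with DESeq2 (-1.08, adjusted p = 0.0215) and without control replicate 1 (-1.30, edgeR adjusted p = 0.0400), while leaving out control replicate 2 gave -0.64 (edgeR adjusted p = 0.0110). All 10 members had the same sign in both name styles as in the pooled comparison.

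**Figure D2:**
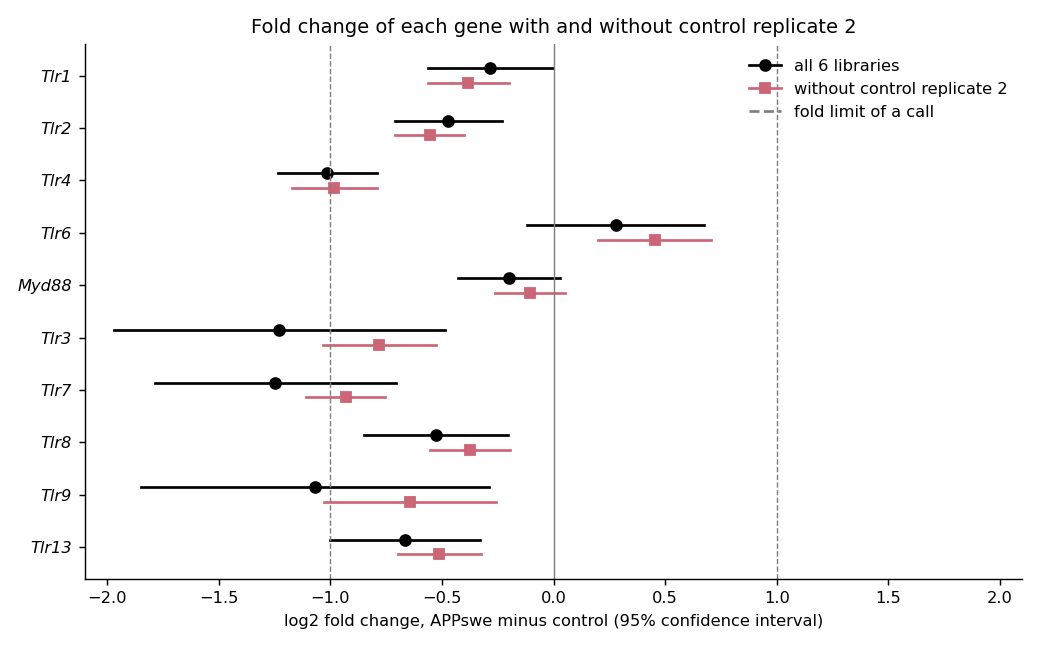
The horizontal axis gives the log2 fold change of APPswe over control with its 95% confidence interval for each gene, from all 6 libraries (black circles) and without control replicate 2 (red squares); dashed lines mark the fold limit of a call at -1 and 1. Without that library Tlr3 moved from -1.23 to -0.78 and Tlr7 from -1.25 to -0.93, and the intervals of both became shorter.

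Levels of different genes were compared in FPKM, which corrects for transcript length. In control libraries the order by mean FPKM was Tlr13 (49.5 ± 9.05), Myd88 (41.9 ± 4.56), Tlr7 (29.2 ± 11.6), Tlr2 (28.4 ± 2.97) and Tlr8 (24.4 ± 3.55; SD, n = 3 each). Over all 3 control libraries each of these overlapped in range with the next, but Tlr13 and Myd88 lay wholly above Tlr2 and Tlr8. Below a gap came Tlr1 (14.1 ± 2.29) and Tlr4 (13.2 ± 1.14), which overlapped, and below a further gap Tlr3 (6.14 ± 2.86), Tlr6 (4.07 ± 1.20) and Tlr9 (2.38 ± 1.08), each overlapping with the next. Most of these overlaps came from control replicate 2. In control replicates 1 and 3 alone Tlr13 (46.8 and 42.1 FPKM) was above Myd88 (39.6 and 39.0), followed without overlap by Tlr2 (30.1 and 30.1) and then by Tlr7 (24.1 and 21.0) and Tlr8 (23.0 and 21.7), the only neighbours of the set that still overlapped. Below them Tlr1 was apart from Tlr4, Tlr3 (4.93 and 4.08 FPKM) from Tlr6 (3.62 and 3.17), and Tlr6 from Tlr9. In APPswe libraries Myd88 led with 38.4 ± 1.61 FPKM, ahead of Tlr13 (32.8 ± 3.41), Tlr2 (21.5 ± 1.18) and Tlr8 (18.2 ± 1.81). Tlr1 (12.2 ± 0.666) and Tlr7 (12.1 ± 0.868) overlapped there, followed by Tlr4 (6.85 ± 0.552), Tlr6 (4.94 ± 0.406), Tlr3 (2.77 ± 0.251) and Tlr9 (1.19 ± 0.156). Tlr7 thus lay above Tlr1 in every control library and at its level in APPswe libraries. Tlr6 was above Tlr3 in APPswe libraries, whereas in control it overlapped with Tlr3 over 3 libraries and lay wholly below it without control replicate 2. Control replicate 2 held 42.5 FPKM of Tlr7 and 5.43 FPKM of Tlr6, more than any other control library. The ratio of Tlr13 to Myd88 was 1.17 ± 0.0922 in control and 0.856 ± 0.108 in APPswe libraries.

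Summed over 12 receptors, the 9 of the set with Tlr5, Tlr11 and Tlr12, control libraries held 173 ± 25.3 FPKM and APPswe libraries 114 ± 9.07 FPKM (SD, n = 3 each), a ratio of 0.663, or 0.722 without control replicate 2. The endosomal receptors summed to 100.4, 143.5 and 90.8 FPKM in control and to 74.2, 62.7 and 64.2 FPKM in APPswe libraries. The surface receptors without Tlr5 gave 64.0, 55.9 and 59.4 FPKM in control and 48.5, 43.3 and 44.7 FPKM in APPswe libraries. Both sums were lower in every APPswe library than in every control library, by a ratio of means of 0.601 for the endosomal and 0.761 for the surface receptors. Without control replicate 2 these ratios were 0.701 and 0.737. The ratio of endosomal to surface receptors was 1.57, 2.57 and 1.53 in control and 1.53, 1.45 and 1.44 in APPswe libraries. Only control replicate 2 departed clearly from the others, so the balance of both classes rested on that library. Within the sum, Tlr7 made up 14.5, 21.2 and 13.8% in control and 10.4, 10.6 and 10.6% in APPswe libraries, and Tlr4 made up 8.39, 6.84 and 7.82% against 5.97, 6.26 and 5.74%. Tlr6 took 2.19, 2.70 and 2.09% in control and 4.27, 4.19 and 4.48% in APPswe libraries. The share of Tlr1 was 9.84, 5.84 and 9.47% against 10.3, 10.8 and 10.8%, that of Tlr8 13.9, 14.2 and 14.3% against 16.2, 15.7 and 15.7%, and that of Tlr3 2.98, 4.69 and 2.69% against 2.43, 2.35 and 2.47%. For these 6 receptors and for Tlr5 the shares of the groups did not overlap, whereas those of Tlr2, Tlr9 and Tlr13 did, for Tlr13 with 28.3, 29.7 and 27.8% against 29.4, 28.5 and 27.9%. By CPM the groups were apart for many genes at large, with APPswe below in 22.2% and above in 22.8% of all genes. Shares add up to a whole, so a lower share of a gene raises that of others.

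**Figure D3:**
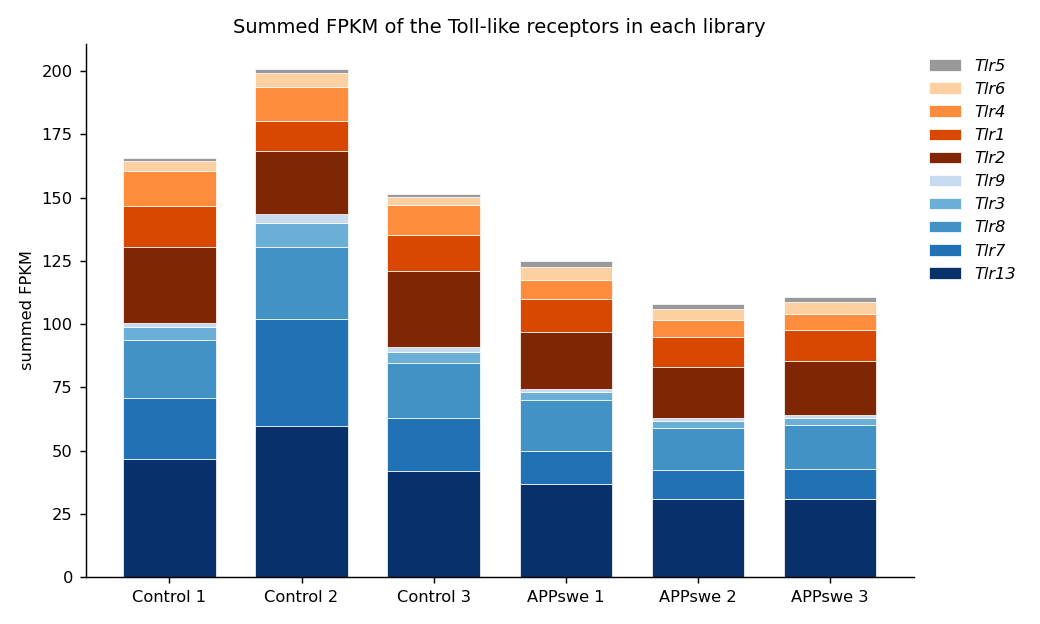
Stacked bars give the summed FPKM of 10 receptors in each library, with endosomal receptors in blue, surface receptors in orange and Tlr5 in grey. With Tlr11 and Tlr12, which add at most 0.04 FPKM to a library and are not drawn, the mean total was 173 FPKM in control and 114 FPKM in APPswe libraries, and the blue part of control replicate 2 reached 143.5 FPKM.

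The receptors outside the set were scarce. Tlr5, the flagellin receptor, was counted at 3.98, 4.50 and 4.18 CPM in control and at 6.28, 5.35 and 5.73 CPM in APPswe libraries. The groups were apart, with APPswe on top, and its log2 fold change of 0.45 (SE 0.15) did not pass the test with all libraries (edgeR adjusted p = 0.0761), but did so without control replicate 2 (0.51, edgeR adjusted p = 0.0169). Tlr11 had 1 count in control replicate 2 and 0 elsewhere, and Tlr12 had 0 counts in control and 2, 2 and 1 in APPswe libraries. Both are at or under the floor of 3 counts, and no fold change is given for them.

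A fixed list of 95 other genes of the pathway, 86 of which passed the filter, was described in the same way. Of these, 6 were called higher (6 of 86, against 3.74% of all genes) and 7 lower (7 of 86, against 3.60%). By the adjusted p alone 7 were higher and 19 lower, beside 10.5% and 12.0% of all genes. The median log2 fold change was -0.13, and -0.16 without control replicate 2. In that fit 8 were called higher, the same 6 with Cd36 and Ptgs2, and 9 lower, with Cd14 lost and Lbp, Ctsb and Ccl5 gained, beside 4.87% and 6.58% of all genes. By the adjusted p alone 18 were then higher and 38 lower, beside 23.3% and 25.0% of all genes. The number called higher was 3 without control replicate 1, 3 without control replicate 3 and 2 without APPswe replicate 2 or 3, where 3.15%, 3.23%, 2.12% and 2.04% of all genes were called higher. The number called lower was 4 without any of the APPswe libraries in turn, where the share of all genes was 1.76%, 1.73% and 1.67%.

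Of the 6 co-receptors, 2 fell in edgeR, beside 3.60% of all genes, and the others did not pass that test. Cd180, a receptor of the same leucine-rich repeat family that works with Ly86 on B cells and macrophages, gave 135, 204 and 126 CPM in control and 53.0, 45.9 and 48.7 CPM in APPswe libraries. The groups were far apart. Its log2 fold change was -1.66 (SE 0.19, edgeR adjusted p = 0.00253), -1.41 without control replicate 2, and the call was kept with each library left out. It was -1.68 among hyphen and -1.42 among underbar libraries. Cd14, which hands lipopolysaccharide to Tlr4, stood at 191, 378 and 202 CPM in control and at 118, 113 and 132 CPM in APPswe libraries. Control replicate 2 held 1.93 times the mean of the other controls, which still exceeded every APPswe library. Cd14 fell by 1.09 on the log2 scale (SE 0.27, edgeR adjusted p = 0.0303), but the call was lost without control replicate 2 (-0.70, edgeR adjusted p = 2.52e-05), without APPswe replicate 1, 2 or 3 (edgeR adjusted p = 0.114, 0.121 and 0.0957) and with a replicate block (edgeR adjusted p = 0.0684). It was -1.27 among hyphen and -0.72 among underbar libraries, and with style as a covariate the call was lost (edgeR adjusted p = 0.0836), as it was with limma on log2(FPKM + 1) (-0.93). For Ly96, the partner of Tlr4 in binding lipopolysaccharide, the log2 fold change was -0.11 (SE 0.22, edgeR adjusted p = 0.766), or -0.22 without control replicate 2, and for Ly86 it was -0.60 (SE 0.35, edgeR adjusted p = 0.255). In edgeR the results of Ly86, Lbp and the scavenger receptor Cd36 changed with the odd control library, and without it 4 co-receptors were lower and 1 higher by the adjusted p alone, beside 25.0% and 23.3% of all genes. Ly86 was then at -0.93 (edgeR adjusted p = 0.000103). Lbp gave 75.8, 3.88 and 76.8 CPM in control and 36.3, 36.5 and 33.9 CPM in APPswe libraries. Its log2 fold change was -0.55 with all libraries (edgeR adjusted p = 0.672) and -1.10 without control replicate 2 (edgeR adjusted p = 5.57e-07), and its sign turned on all libraries with limma on log2(FPKM + 1) (0.24, adjusted p = 0.873) and with a replicate block (0.02, edgeR adjusted p = 0.993). Cd36 gave 35.1, 136 and 33.6 CPM in control and 266, 222 and 230 CPM in APPswe libraries. Its log2 fold change was 1.81 with all libraries (edgeR adjusted p = 0.0566) and 2.81 without control replicate 2 (edgeR adjusted p = 7.6e-09). On all 6 libraries Cd36 was called higher with DESeq2 (1.80, adjusted p = 0.0350) and with limma on log2(FPKM + 1) (2.16, adjusted p = 0.0268).

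Of the 6 trafficking genes tested, which move and mature the endosomal receptors, 0 were called in edgeR. This is near the shares of all genes, 3.60% called lower and 3.74% higher. Slc15a4, a lysosomal transporter needed for Tlr7 and Tlr9 signalling, was the only one of them lower by the adjusted p alone, beside 12.0% of all genes. It stood at 54.5, 61.5 and 59.3 CPM in control and 34.4, 41.1 and 40.5 CPM in APPswe libraries. The groups did not overlap, and its log2 fold change was -0.60 (SE 0.10, edgeR adjusted p = 0.00846) and -0.55 without control replicate 2. Unc93b1, the chaperone that carries the nucleic acid sensors to endosomes, had a log2 fold change of -0.31 (SE 0.11, edgeR adjusted p = 0.0954), or -0.39 without control replicate 2 (edgeR adjusted p = 0.00266). Ap3b1, of the AP-3 sorting complex, was at -0.28 (SE 0.08, edgeR adjusted p = 0.0545). The folding factors Hsp90b1, Cnpy3 and Cnpy4 were at 0.02, -0.15 and -0.05, with edgeR adjusted p-values of 0.914, 0.450 and 0.701 (0.13, -0.25 and -0.11 without control replicate 2), and Lamp5 had 1 count in all libraries together. At an unadjusted p of at most 0.05, 3 of them were lower (Unc93b1, Slc15a4 and Ap3b1), and DESeq2 and limma also called 0. Without control replicate 2 these 3 and Cnpy3 were lower by the adjusted p alone, beside 25.0% of all genes. Of the 10 genes listed for the processing of ligands or receptors, 9 had a log2 fold change below 0 (beside 6790 of the 13484 genes tested). By the adjusted p 5 passed, all lower (beside 12.0% of all genes). In edgeR, DESeq2 or limma 0 were called, beside 3.60% of all genes lower and 3.74% higher in edgeR. At an unadjusted p of at most 0.05 in edgeR 8 were lower. For that cut-off no share of all genes is given, here or for the trafficking genes, and it is at least 12.0% for lower genes. With control replicate 2 left out 9 of the 10 were lower by the adjusted p alone, beside 25.0% of all genes. The protease gene Ctsb came closest at -0.99 (SE 0.09, edgeR adjusted p = 0.00139), and was called lower without control replicate 2 (-1.06). The exonuclease genes Pld4 (-0.91, edgeR adjusted p = 0.00524) and Pld3 (-0.80, edgeR adjusted p = 0.0103) limit nucleic acid sensing by degrading ligands, and were lower as well. Dnase2a (-0.60) and the protease gene Lgmn (-0.34) completed the 5, with edgeR adjusted p-values of 0.00466 and 0.0466. Lgmn did not pass with a replicate block (edgeR adjusted p = 0.0834).

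The signalling steps behind the receptors were adaptors, kinases and ligases. None of the 5 other adaptors was called in edgeR, DESeq2 or limma. This is near the shares of all genes called in edgeR, 3.60% lower and 3.74% higher. At an unadjusted p of at most 0.05 in edgeR 2 were lower, for which no share of all genes is given here. Pik3ap1 (BCAP), which ties the receptors to phosphoinositide 3-kinase, was lower by the adjusted p (-0.53, SE 0.13, edgeR adjusted p = 0.0274; -0.38 without control replicate 2). It did not pass with a replicate block (edgeR adjusted p = 0.0536) or with name style as a covariate (edgeR adjusted p = 0.0611). The bridging adaptor Tirap was at -0.37 (edgeR adjusted p = 0.131), Ticam2 at -0.33 (edgeR adjusted p = 0.137), Ticam1 at -0.11 (edgeR adjusted p = 0.545) and Sarm1 at 0.15 (edgeR adjusted p = 0.750). With control replicate 2 left out these were -0.21, -0.22, -0.11 and 0.00, and again did not pass. Among the 18 kinases and ligases 0 were called in edgeR, DESeq2 or limma, beside 3.60% of all genes lower and 3.74% higher in edgeR. At an unadjusted p of at most 0.05 in edgeR 3 were higher and 4 lower. The shares of all genes at that cut-off are not given here, and are at least 10.5% and 12.0%. By the adjusted p alone 1 was higher (Ikbkg, 0.37, edgeR adjusted p = 0.0168) and 1 lower (Ripk1, -0.30, edgeR adjusted p = 0.0235), beside 10.5% and 12.0% of all genes. Leaving out control replicate 2 raised these counts to 3 higher (Ikbkg, Tab1 and Tab2) and 5 lower (Ripk1, Irak2, Traf3, Ikbke and Peli2), beside 23.3% and 25.0% of all genes. The median over these 18 genes was -0.02, and 0.03 in that fit. With a replicate block on all libraries neither Ikbkg nor Ripk1 passed (edgeR adjusted p = 0.0521 and 0.0560).

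Of the 13 transcription factors, Fos was called higher and Irf7 lower in edgeR, beside 3.74% and 3.60% of all genes. Irf7, the factor behind type I interferon after Tlr7 and Tlr9 signalling, gave 34.1, 203 and 32.7 CPM in control and 13.1, 13.5 and 13.8 CPM in APPswe libraries. Control replicate 2 held 6.07 times the mean of the other controls, and those were in turn above every APPswe library. Irf7 fell by 2.74 on the log2 scale (SE 0.76, edgeR adjusted p = 0.0429) and by 1.31 without control replicate 2 (edgeR adjusted p = 5.67e-07). The call was lost without APPswe replicate 1, 2 or 3 (edgeR adjusted p = 0.146, 0.144 and 0.142) with a replicate block (edgeR adjusted p = 0.0904) and with name style as a covariate (edgeR adjusted p = 0.146), and was absent with limma on log2(FPKM + 1) (-1.99, adjusted p = 0.0763). It was -3.18 among hyphen libraries, which include control replicate 2, and -1.26 among underbar libraries. Irf8, a factor of the macrophage lineage, and Jun were lower by the adjusted p alone, at -0.65 (SE 0.08, edgeR adjusted p = 0.00314) and -0.43 (SE 0.09, edgeR adjusted p = 0.0221). Fos, the AP-1 partner of Jun, rose from 40.4, 22.1 and 45.0 CPM in control to 85.2, 97.1 and 90.8 CPM in APPswe libraries, with no overlap. Its log2 fold change was 1.34 (SE 0.25, edgeR adjusted p = 0.0119), 1.09 without control replicate 2, and the call was lost without APPswe replicate 2 (edgeR adjusted p = 0.0572) or 3 (edgeR adjusted p = 0.0551). Among hyphen libraries Fos was at 1.45 and among underbar libraries at 1.06. Among the 13 inhibitors Socs1 was called higher at 1.13 (SE 0.33, edgeR adjusted p = 0.0489), from 1.91, 2.53 and 3.27 CPM to 3.53, 6.96 and 6.41 CPM. The groups were barely apart, and the call was lost without control replicate 1 or 3 and without APPswe replicate 2 or 3 (edgeR adjusted p = 0.127, 0.0624, 0.173 and 0.165). It was 0.67 among hyphen and 1.03 among underbar libraries, and 0.85 with style as a covariate and 0.95 with limma on log2(FPKM + 1), both below the fold limit. With no filter on low counts the edgeR adjusted p of Socs1 was 0.0555. The deubiquitinase gene Cyld (-0.43, edgeR adjusted p = 0.00755) and Tnip1 (-0.47, edgeR adjusted p = 0.0197) were lower by the adjusted p alone. By that measure 1 transcription factor was higher and 3 lower, or 3 and 6 without control replicate 2, and 1 inhibitor was higher and 2 lower, or 3 and 4. The shares of all genes were 10.5% and 12.0%, or 23.3% and 25.0% without that library.

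Target genes of the pathway split in both directions. Of 20 listed cytokine and effector genes 14 were tested, of which edgeR called 4 higher and 4 lower, beside 3.74% and 3.60% of all genes. DESeq2 called 3 higher and 5 lower, with Il1b lost and Ccl5 gained (-1.85, adjusted p = 0.0113), while the calls of limma on log2(FPKM + 1) were 3 in the higher and 4 in the lower direction. In edgeR Ccl5 was at -1.83 (adjusted p = 0.0547) and was called with a replicate block (-1.82, adjusted p = 0.0264) and without control replicate 2 (-1.22, adjusted p = 0.0123). The lower genes were tumor necrosis factor and 3 chemokines that attract monocytes. Ccl2 gave 175, 178 and 164 CPM in control and 64.3, 67.0 and 68.3 CPM in APPswe libraries, with little spread inside each group. It fell by 1.37 on the log2 scale (SE 0.07, edgeR adjusted p = 0.000296) and by 1.34 without control replicate 2. Ccl3 gave 44.7, 27.8 and 41.0 CPM in control and 13.8, 11.8 and 14.2 CPM in APPswe libraries, and Ccl4 gave 38.2, 29.6 and 40.8 against 10.6, 11.0 and 14.7 CPM. For both the groups were apart, with log2 fold changes of -1.51 (SE 0.19, edgeR adjusted p = 0.00338) and -1.58 (SE 0.18, edgeR adjusted p = 0.00242), or -1.69 and -1.70 without control replicate 2. Tnf fell by 1.40 (SE 0.26, edgeR adjusted p = 0.0131), from 36.1, 21.4 and 45.0 CPM to 11.8, 13.0 and 14.2 CPM, and by 1.64 without control replicate 2. Its groups were apart, but the edgeR adjusted p was 0.0671, 0.0650 and 0.0573 without APPswe replicate 1, 2 or 3. Ccl2, Ccl3 and Ccl4 were called in all 6 fits that lacked a library. The differences among hyphen and underbar libraries were -1.46 and -1.27 for Ccl2, -1.39 and -1.66 for Ccl3, -1.68 and -1.67 for Ccl4 and -1.29 and -1.73 for Tnf.

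The higher target genes were mostly low in abundance. Il6 rose from 1.62, 1.69 and 1.64 CPM in control to 7.23, 6.41 and 6.07 CPM in APPswe libraries, and Cxcl1 from 4.91, 1.97 and 4.40 CPM to 19.8, 18.1 and 18.5 CPM. In both genes every APPswe library was above every control library, and the call was kept with each library left out. The log2 fold change was 1.99 for Il6 (SE 0.17, edgeR adjusted p = 0.000991) and 2.32 for Cxcl1 (SE 0.31, edgeR adjusted p = 0.00405), or 2.01 and 2.02 without control replicate 2. Il1b rested on 4, 7 and 2 counts in control and 17, 12 and 18 counts in APPswe libraries, so its log2 fold change of 1.81 (SE 0.46, edgeR adjusted p = 0.0342) is imprecise. The call of Il1b was absent with DESeq2 (adjusted p = 0.0783), with limma on log2(FPKM + 1) (0.57, below the fold limit), with a replicate block (edgeR adjusted p = 0.101) and without any library other than control replicate 2, with edgeR adjusted p-values up to 0.142. Il1rn, the antagonist of the interleukin-1 receptor, gave 60.1, 14.6 and 57.5 CPM in control and 136, 136 and 138 CPM in APPswe libraries. Control replicate 2 held 0.249 times the mean of the other controls. The log2 fold change of Il1rn was 1.63 (SE 0.47, edgeR adjusted p = 0.0485), or 1.22 without that library (edgeR adjusted p = 1.49e-07). With any other library left out the call was lost, with edgeR adjusted p-values up to 0.136, and likewise with a replicate block (edgeR adjusted p = 0.0685) and with name style as a covariate (edgeR adjusted p = 0.0991). Among hyphen and underbar libraries the differences were 2.13 and 1.93 for Il6, 2.53 and 2.06 for Cxcl1, 1.61 and 2.90 for Il1b and 1.86 and 1.25 for Il1rn. Cxcl10, named after its values were seen, stood at 2.77, 25.0 and 2.03 CPM in control and at 4.09, 3.06 and 4.16 CPM in APPswe libraries, and its sign turned with control replicate 2, from -1.40 (edgeR adjusted p = 0.315) to 0.65 without it (edgeR adjusted p = 0.0281). Ifnb1, Il12a, Il12b, Il23a, Il1a and Nos2 were too scarce to be tested.

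**Figure D4:**
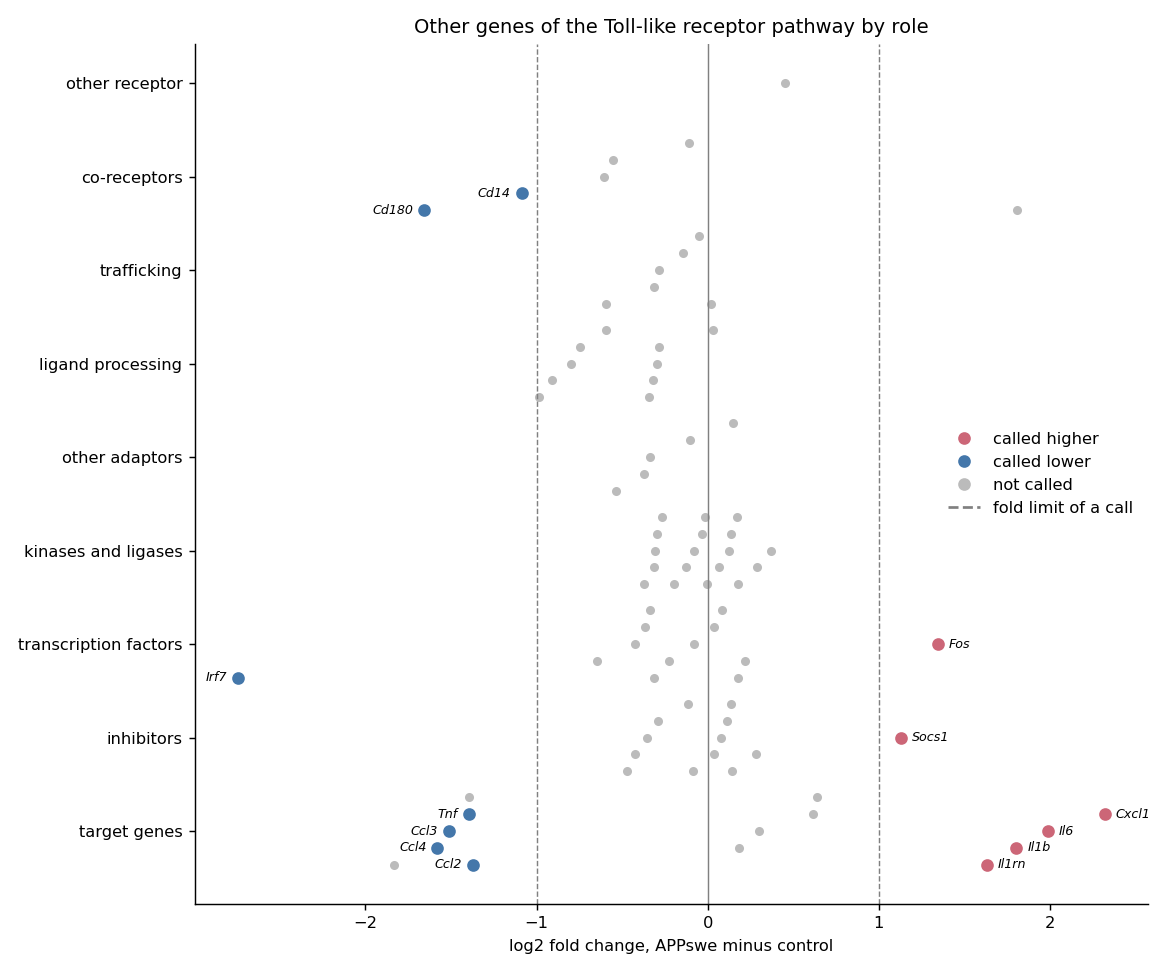
Each point is a tested gene of the pathway list, placed by its log2 fold change of APPswe over control (horizontal axis) and its role (vertical axis, with points spread for legibility); red points were called higher, blue points lower, and dashed lines mark a log2 fold change of -1 and 1. Called genes are named, 6 higher and 7 lower, and the 8 called target genes lie on both sides.

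For each called member the genes with the nearest profile over the 6 libraries were found among 12214 genes, by the root mean square distance between log2 CPM values centred on their mean. Near to Tlr4 were Fam107b (distance 0.0508) and Bcl2 (0.0556). They shared its near-equal controls, with control replicate 2 at 1.04 and 1.01 times the mean of the other controls. Nearest to Tlr3 were Samd9l (0.0536), Nmi (0.0801) and Parp9 (0.0827), which are known as interferon-induced genes. All of them were also high in control replicate 2, at 2.12, 1.88 and 2.33 times the mean of the other controls, and their log2 fold changes were -1.14, -1.09 and -1.31. Nearest to Tlr7 were Sp110 (0.0755), Mmp16 (0.0968) and Tlr3 itself. In Sp110 and Mmp16 control replicate 2 stood at 1.63 and 1.70 times the other controls. These genes were chosen by their values in these same libraries. Their likeness in control replicate 2 and in fold change therefore follows from the choice and is no further finding. The likeness is a description over 6 libraries, and says nothing of shared function or control.

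Markers of osteoblasts and of other cell types were summed over lists to show which cells the libraries hold. The osteoblast list (12 of 12 genes found) summed to 8674, 11482 and 9732 CPM in control and to 7937, 8734 and 8714 CPM in APPswe libraries, with Col1a2 as its most abundant gene. Col1a1 and Col1a2 made up most of these sums. In control replicate 2, 5 of the 12 were at or under 3 counts, against 1 in each other library. Sp7, an osteoblast transcription factor, was called higher (1.98, edgeR adjusted p = 0.0205; 1.59 without control replicate 2), a call lost without control replicate 1 and without each APPswe library in turn (edgeR adjusted p up to 0.0837) and with a replicate block (2.12, edgeR adjusted p = 0.0525). None of the list was called lower in edgeR (beside 3.60% of all genes) or limma, DESeq2 called 1 and an unadjusted p of at most 0.05 in edgeR gave 1. Without control replicate 2 Bglap2 (-1.12), Dmp1 (-4.21) and Phex (-1.27) were called lower, beside 6.58% of all genes. By the adjusted p alone 5 of the list were then lower and 3 higher, beside 25.0% and 23.3% of all genes. The higher genes were Sp7, Runx2 (0.84, edgeR adjusted p = 1.72e-05) and Alpl (0.77, edgeR adjusted p = 7.14e-06). Bglap turned from 0.12 (edgeR adjusted p = 0.945) to -0.46 without that library (edgeR adjusted p = 0.0337). The macrophage list (15 of 15 genes found) summed to 24013, 18423 and 25673 CPM in control and to 12974, 13970 and 14087 CPM in APPswe libraries, with Lyz2 as its most abundant gene. Every macrophage gene was above 3 counts in every library, so macrophage transcripts were abundant in cells labelled as osteoblasts. In every library the macrophage sum exceeded the osteoblast sum, and Lyz2 exceeded Col1a2 in FPKM as well as in CPM. Lyz2 alone held 14794, 9772 and 16084.5 CPM in control and 7148, 7840 and 7879 CPM in APPswe libraries. In most libraries the order of the sums rested on this gene. The label as osteoblasts thus does not describe all of the transcripts counted. Of these 15 genes 7 were lower by the adjusted p alone (beside 12.0% of all genes) and 0 were called lower in edgeR (beside 3.60%), whereas Aif1 was called higher (1.18, edgeR adjusted p = 0.0205). That call was lost without control replicate 2 (0.91) and without APPswe replicate 1, 2 or 3 (edgeR adjusted p = 0.0753, 0.0837 and 0.0753), and with name style as a covariate (edgeR adjusted p = 0.0507). DESeq2 and limma also called 0 of them lower, and at an unadjusted p of at most 0.05 in edgeR the count lower was 9. For that cut-off no share of all genes is given, here or for the osteoblast list, and it is at least 12.0% for lower genes. In the fit without control replicate 2 Lyz2 was called lower (-1.02), and by the adjusted p alone 10 were lower and 2 higher, beside 25.0% and 23.3% of all genes.

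The macrophage sum was lower in APPswe libraries, as was that of the members. Its ratio of APPswe to control means was 0.602, or 0.551 without control replicate 2, and 0.662 and 0.644 without Lyz2. The summed CPM of the 10 members was 720, 883 and 668 in control and 507, 454 and 467 in APPswe libraries, a ratio of 0.629, or 0.686 without control replicate 2. Control replicate 2 was the lowest control by the macrophage sum but the highest by the median gene of that list, which stood at 528, 614 and 574 CPM in control and 405, 419 and 407 CPM in APPswe libraries. Of the 15 macrophage genes 13 had a log2 fold change below 0, while Aif1 and Mertk were above it. Adgre1 (-0.54, edgeR adjusted p = 0.0436), Itgam (-0.62, edgeR adjusted p = 0.00902) and Lyz2 (-0.83, edgeR adjusted p = 0.0222) were among those lower by the adjusted p. Csf1r and Ptprc, which mark macrophages and leukocytes at large, had log2 fold changes of -0.07 (edgeR adjusted p = 0.832) and -0.18 (edgeR adjusted p = 0.477), against -0.98 for Cd68 (edgeR adjusted p = 0.00093). Both turned above 0 without control replicate 2, Csf1r to 0.23 (edgeR adjusted p = 0.00556) and Ptprc to 0.04 (edgeR adjusted p = 0.720), Mertk turned from 0.10 to -0.09 (edgeR adjusted p = 0.742 and 0.334), and Cd68 was at -0.99. The part of macrophage number in the lower receptor counts was not tested.

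Other lists were small or moved differently. The osteoclast list (7 of 7 genes found, most abundant Ctsk) summed to 223, 143 and 216 CPM in control and to 652, 662 and 646 CPM in APPswe libraries. The muscle list (8 of 8, most abundant Acta1) summed to 1.33, 8.32 and 1.81 CPM against 143, 137 and 142 CPM. The endothelial list (6 of 6, most abundant Emcn or Kdr) came to 198, 26.8 and 206 CPM against 11.0, 9.97 and 11.4 CPM. In edgeR 4 osteoclast and 7 muscle genes were called higher, beside 3.74% of all genes, and 1 endothelial gene, Kdr, lower (-2.45, edgeR adjusted p = 0.00503), beside 3.60%, each call kept with every library left out. The endothelial count was 3 with DESeq2, 1 with limma and 6 without control replicate 2, where Pecam1 (-4.36), Cdh5 (-5.34), Emcn (-5.12), Tie1 (-4.61) and Tek (-1.16) joined Kdr (-1.97). In that fit the osteoclast count was 5, with Dcstamp (1.71) added, and the muscle count 7, beside 4.87% of all genes called higher and 6.58% lower. The neutrophil list (8 of 8, most abundant Camp or S100a8) stayed between 0.562 and 2.66 CPM, the B cell list (4 of 5, most abundant Cd79b or Pax5) between 0.621 and 1.29 CPM, and the T and NK cell list (5 of 6, most abundant Lck) between 0.520 and 1.07 CPM. Without control replicate 2 Camp, with 4 to 25 counts, was called lower (-1.12, edgeR adjusted p = 0.0401), and Cd79b, with 2 and 1 counts in the remaining controls and 15, 8 and 14 in APPswe libraries, was called higher (edgeR adjusted p = 0.00272). On all libraries DESeq2 called Pax5 lower (adjusted p = 0.0259), at 8, 16 and 6 counts in control and 1, 1 and 0 in APPswe libraries, a gene that did not pass the filter of the edgeR fit. The dendritic list (7 of 7) was between 1.01 and 4.01 CPM, most of it Zbtb46, and its genes Flt3, Xcr1 and Siglech were at 0 counts in all libraries. Zbtb46 was called higher (1.32, edgeR adjusted p = 0.0145; 1.15 without control replicate 2), a call lost without each APPswe library in turn (edgeR adjusted p up to 0.0813), with a replicate block (edgeR adjusted p = 0.0564) and with limma on log2(FPKM + 1) (0.44) or log2(FPKM + 0.1) (0.99), both below the fold limit. Neutrophils, lymphocytes and dendritic cells were therefore at the edge of detection by these markers. The part of the other cell types in the receptor counts was not tested.

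**Figure D5:**
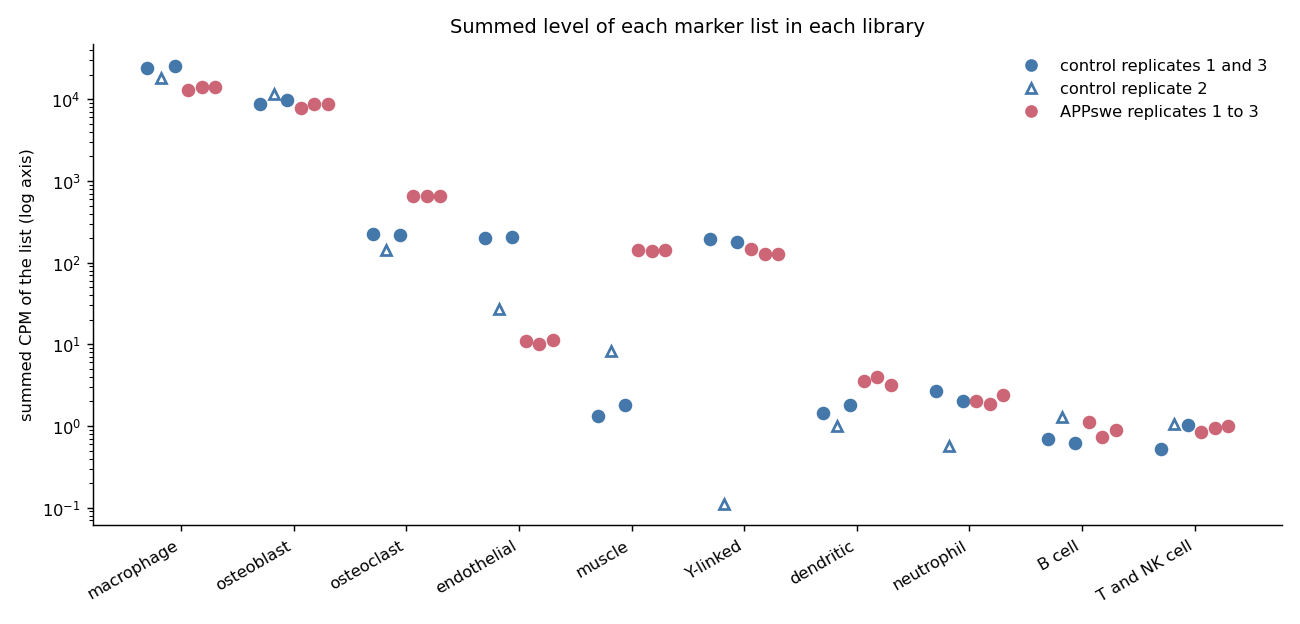
Points give the summed CPM of each marker list (logarithmic vertical axis) in each library, with control in blue, APPswe in red and control replicate 2 as an open triangle; the Y-linked list sums Ddx3y, Eif2s3y, Kdm5d and Uty. Macrophage sums ranged from 18423 to 25673 CPM in control and from 12974 to 14087 CPM in APPswe libraries, while neutrophil and lymphocyte sums stayed below 3 CPM.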

How the data were processed

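The authors deposited read counts per gene for 6 libraries, without normalization, and FPKM values, in which 397 genes are blank in libraries named with a hyphen and 716 in those named with an underbar; blanks were read as 0. The authors' deposited log2 fold change and p-value columns hold their own comparison of the genotypes and were not used. Libraries were prepared with the SMARTer kit and sequenced on the DNBseq platform, with build GRCm38 per the labels. The aligner and counting tool are not given in the sources used here.

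The test on counts used edgeR 4.0.16 in R 4.3.3 (TMM, filterByExpr, quasi-likelihood test, Benjamini-Hochberg adjustment over 13484 genes). A standard error is the log2 fold change over the square root of F. Alternatives were DESeq2 1.42.0, limma 3.58.1 on log2(FPKM + 1) or log2(FPKM + 0.1), other scalings, filters, thresholds and covariates, and each library left out. The tests were tried on simulated data.

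Named genes are the members, Tlr5, Tlr11 and Tlr12, called genes of the pathway list, its co-receptors, trafficking factors and adaptors, the 3 nearest genes of each called member and the markers. Not every gene under this rule is reported here. Other pathway genes were named after their values were seen. The members and lists were chosen with earlier results of these data known.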

Additional observations from a re-analysis of the deposited data

How the results depend on the processing

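All 10 members kept the sign of their log2 fold change under the 15 of 18 alternatives that gave fold changes of their own. The remaining 3 change only the threshold or the filter. The 3 members called lower became 6 with no fold limit, 1 with name style as a covariate, 1 with limma on log2(FPKM + 1), on log2(FPKM + 0.1) or on unfiltered FPKM, and 0 with edgeR's glmTreat against a log2 fold change of 1. With libraries left out in turn the number was 0 to 3, and the number called higher was 0 in every setting. Pathway genes called lower, 7 with all libraries, became 19 with no fold limit, 1 with glmTreat and 4 to 9 with libraries left out. Pathway genes called higher, 6 with all libraries, became 2 with glmTreat and 2 to 8 with libraries left out. DESeq2 called 6 of them higher and 8 lower, and limma on log2(FPKM + 0.1) 7 and 5. Over all genes, 504 were called higher and 486 lower, against 1414 and 1622 with no fold limit, 147 and 72 with glmTreat, 496 and 287 with limma on log2(FPKM + 0.1), 324 and 187 on log2(FPKM + 1), 305 and 170 on the latter without a filter, and 320 and 412 with at least 10 counts in every library. With libraries left out these counts were 281 to 670 and 230 to 905, and with the replicate block 384 and 324. The share of calls that were higher was 50.9% in the reported fit and 63.4%, 63.3% and 64.2% with limma on log2(FPKM + 1), on log2(FPKM + 0.1) and on the former without a filter. It was 67.1% with glmTreat, 58.2% on library totals without TMM, 45.9% with DESeq2, 43.7% with at least 10 counts in every library and 42.5% without control replicate 2. The replicate block called 2 members lower, and 4 pathway genes higher and 6 lower. The numbers were not used as pairs, since libraries of the same number deviated with correlations of 0.07, -0.04 and 0.16, and control replicate 2 correlated best with APPswe replicate 1. By the endings of their library names control replicate 3 matches APPswe replicate 2 (correlation 0.12), and a block by name was not fitted. The cause of the shifts between settings was not tested, beyond the fewer libraries or stricter threshold that some settings impose. Depth limits Tlr11 and Tlr12, at or under 3 counts, Il1b, at 2 to 18 counts, and Ocstamp, with a control mean of 0.208 CPM.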

Other observations

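Of the 7 genes of the osteoclast list 6 were tested, and edgeR called 4 higher (Acp5, Mmp9, Ocstamp and Oscar), beside 3.74% of all genes. By the adjusted p alone 5 were higher, beside 10.5% of all genes. Dcstamp did not pass (1.09, edgeR adjusted p = 0.0887), and Calcr was not tested. Acp5, which encodes tartrate-resistant acid phosphatase, was at 5.90 ± 1.90 CPM in control and 200.4 ± 11.3 CPM in APPswe libraries (SD, n = 3 each), with a log2 fold change of 5.09 (SE 0.24, edgeR adjusted p = 0.000296) and 4.84 without control replicate 2. Ocstamp, needed for the fusion of precursors, was at 0.208 ± 0.0634 and 5.46 ± 1.12 CPM (4.67, edgeR adjusted p = 0.000524), and the receptor gene Oscar at 0.452 ± 0.255 and 3.94 ± 0.522 CPM (3.10, edgeR adjusted p = 0.00377). These 3 calls were kept with each library left out. The control mean of Ocstamp is close to the floor of 3 counts (0.167 to 0.173 CPM), so the size of its fold change is imprecise. Ctsk was at 181 ± 43.7 and 309 ± 14.5 CPM, and its difference of 0.77 log2 was below the fold limit (edgeR adjusted p = 0.0259). In the same libraries Tlr4 and Cd14 were lower, as given above, and no relation between these genes was tested.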
